A study of Rattus norvegicus with 11 samples.

Results

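The insulin receptor and its signalling genes were followed in rat liver after dosing with mequindox, a quinoxaline N-oxide antibacterial used in farm animals. The 9 genes were Insr, Irs1, Irs2, Pik3r1, Akt1, Akt2, Foxo1, Foxo3 and Gsk3b. They were taken as the probe sets whose single symbol in the platform annotation was one of these names, which gave 19 probe sets out of 31099 on the array, and 9 genes out of 14217 with a probe set of 1 symbol. The brightest probe set over the 11 arrays stood for each gene. Liver RNA came from 8 Wistar rats given the high dose of mequindox (animals 2, 3, 4, 5, 6, 8, 10 and 11) and 3 control Wistar rats (animals 1, 2 and 9), with 1 array per animal. All were labelled week 9 of age except high-dosed animal 8, which was labelled week 10. The size of the dose, the length of dosing and what the controls were given are not given in the sources used here, and the study chose these groups for arrays after a principal component analysis of liver extracts and clinical chemistry.

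Insulin binds its receptor, a tyrosine kinase on the cell surface, which then phosphorylates the adaptor proteins IRS1 and IRS2. These recruit phosphoinositide 3-kinase, whose lipid product brings the AKT kinases to the membrane. In hepatocytes AKT inhibits GSK3B, which releases glycogen synthesis, and phosphorylates FOXO1 and FOXO3, which leave the nucleus and stop driving genes of glucose production. Much of this control acts by phosphorylation and is not seen in RNA levels.

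Promoters of 7 of the 9 genes were matched by symbol in RefSeq (assembly GRCr8). Those of Insr and Irs1 are shown, as the receptor at the head of the pathway and the 1 member that passed the test below. Each runs from 250 bases before to 50 bases after the annotated start of the gene, 5′ to 3′ on the gene's strand, and capitals mark a match to the forkhead core.
Insr, GRCr8 chr12:6128754-6129053, minus strand: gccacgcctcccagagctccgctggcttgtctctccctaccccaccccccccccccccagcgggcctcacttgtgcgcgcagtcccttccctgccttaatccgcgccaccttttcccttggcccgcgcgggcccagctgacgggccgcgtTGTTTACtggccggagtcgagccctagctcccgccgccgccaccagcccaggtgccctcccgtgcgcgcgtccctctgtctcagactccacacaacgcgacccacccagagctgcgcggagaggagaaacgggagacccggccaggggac
Irs1, GRCr8 chr9:91053910-91054209, minus strand: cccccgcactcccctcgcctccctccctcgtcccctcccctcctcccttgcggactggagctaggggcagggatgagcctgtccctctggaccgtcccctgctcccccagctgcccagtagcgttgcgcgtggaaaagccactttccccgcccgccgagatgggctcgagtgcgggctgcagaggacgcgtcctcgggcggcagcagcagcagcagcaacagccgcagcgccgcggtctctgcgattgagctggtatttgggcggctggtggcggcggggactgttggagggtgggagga
The forkhead core, GTAAACA or its reverse complement TGTTTAC, is the kind of site that FOXO proteins bind. It was found in 1 of the 7 promoters, that of Insr, starting 100 bases before the gene's start, and in 3.78% of 33469 rat promoters of the same length. The insulin response element core, CAAAACA on either strand, was in 0 of the 7 and in 6.28% of all promoters. The E-box CACGTG, which reads the same on both strands, was in 1 of the 7, that of Gsk3b, and in 6.42% of all. Guanine and cytosine made up 71.3% of the Insr promoter and 70.3% of that of Irs1, against a median of 51.7% over all promoters.

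The values were deposited intensities on a linear scale, with array medians from 149 to 186.6. Fold changes were taken on log2(intensity + 55.26), where the added constant is the 20th percentile of all values, so changes of dim probe sets are understated. A change was called at a limma adjusted p below 0.05. Of 10714 genes tested 10.6% were called, 847 as higher (7.91%) and 294 as lower (2.74%) after mequindox, so that 74.2% of calls were higher. That share was 63.9% after quantile normalization (589 higher and 333 lower), 64.7% after median centring (473 and 258) and 82.7% (703 and 147) when the median was taken over all probe sets. On the first principal component of the tested genes, with 31.2% of the variance, high-dosed animals 8, 10 and 11 (10.8 to 18.7) stood apart from high-dosed animals 2 to 6 (-3.36 to 1.57) and from controls (-19.1 to -9.8). Values without those 3 animals are therefore given too.

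Of the 9 genes, 1 was called as changed. Irs1 was higher in the high-dosed livers, a call that was lost in 6 of 24 other settings. Insr, Irs2, Pik3r1, Akt1, Akt2, Foxo1, Foxo3 and Gsk3b did not pass the test. The RNA was from whole liver, in which fewer cells of a type and less RNA per cell cannot be told apart. A count of 1 in 9 is 11.1%, against the 10.6% of all genes called in either direction, so it is not a result about these genes as a group. Log2 fold changes of the brightest probe sets ran from -0.19 to 0.36 with a median of -0.016, against a median of 0.017 over all genes tested, and 4 of the 9 lay above 0. All 9 genes had a brightest probe set above the signal filter, and of the 19 probe sets 14 passed it. Of those 14, only that of Irs1 was called, while 6.92% of all 18625 tested probe sets were, 4.63% as higher and 2.29% as lower.

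**Figure D1:**
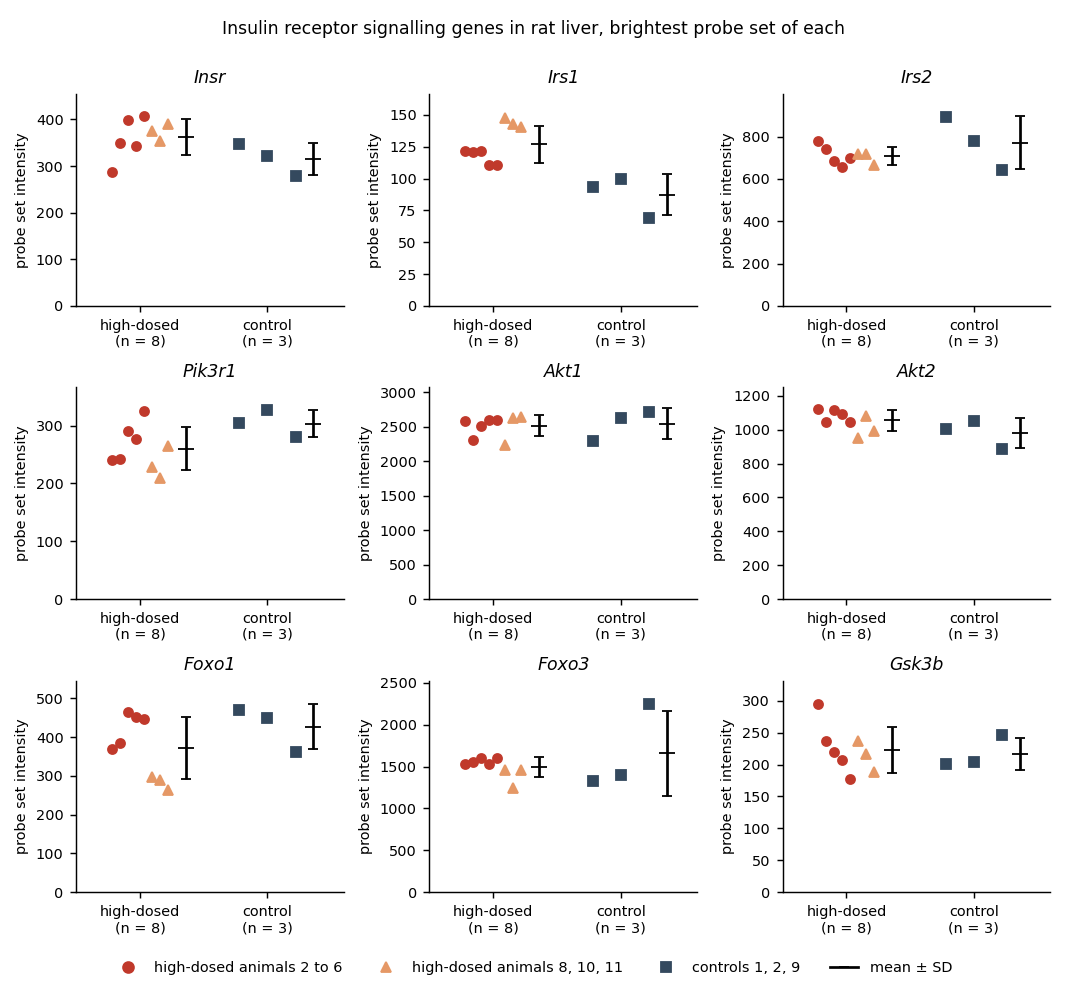
Intensity of the brightest probe set of each gene (vertical axis, linear, from 0) in 8 high-dosed livers (left) and 3 control livers (right), 1 point per animal, with the mean and SD beside each group. Circles are high-dosed animals 2 to 6, triangles high-dosed animals 8, 10 and 11, squares controls; only for Irs1 do the high-dosed points all lie above the controls.

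Insr, which encodes the receptor, had intensities of 287.3, 349.4, 399.4, 343.9 and 406.2 in high-dosed animals 2 to 6 and of 376, 353.8 and 389.1 in high-dosed animals 8, 10 and 11, against 347.3, 321 and 279.5 in controls 1, 2 and 9. In 6 of the 8 high-dosed animals the value lay above all controls, and in the other two it lay among them. The log2 fold change was 0.17 ± 0.095 (SE, n = 8 and 3), with a limma adjusted p of 0.286 and a 95% interval for the fold change from 0.977 to 1.3. Without control 9, the lowest sample, it was 0.099 (limma adjusted p = 0.606), within animal numbers 6 and below 0.076 and within numbers 8 and above 0.35. The dimmer Insr probe set averaged 147.3 ± 7.75 in high-dosed and 149.5 ± 13.5 in control livers (SD, n = 8 and 3), and its log2 fold change of -0.015 had a limma adjusted p of 0.92. The 2 probe sets of the receptor thus differed in sign, and neither was called.

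Irs1, the insulin receptor substrate that passes the signal on to phosphoinositide 3-kinase, was higher in every high-dosed liver than in any control. Its intensities were 121.8, 120.5, 122, 110.7 and 110.7 in high-dosed animals 2 to 6 and 147.2, 142.8 and 140.3 in high-dosed animals 8, 10 and 11, against 93.2, 99.7 and 69.4 in controls 1, 2 and 9. The highest 3 values were those of animals 8, 10 and 11, and the lowest was control 9. Groups without overlap were found for 12.1% of all genes tested, 8.69% with the high-dosed group above and 3.37% with it below. The mean was 127 ± 14.4 in high-dosed and 87.4 ± 16.0 in control livers (SD, n = 8 and 3), a ratio of 1.45. On the log2 scale the fold change was 0.36 ± 0.091 (SE, limma adjusted p = 0.0277), a 1.28-fold rise with a 95% interval from 1.12 to 1.47, and 0.54 with an added constant of 1.

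Irs1 was dim. Its mean log2 signal over all arrays, 7.41, was just above the filter value of 7.40, and its control mean of 7.15 lay below it, so the gene entered the test through the high-dosed arrays. With no filter it was still called (limma adjusted p = 0.0285). The call was lost without control 1 (0.39, limma adjusted p = 0.0837), without control 9 (0.26, limma adjusted p = 0.123) and after median centring (0.33, limma adjusted p = 0.0698). Without high-dosed animals 8, 10 and 11, with the tested genes kept, it was 0.28 (limma adjusted p = 0.0628). Within animal numbers 6 and below it was 0.18 (limma adjusted p = 0.152), and within numbers 8 and above, with 1 control assumed to vary like the high-dosed animals, 0.67 (limma adjusted p = 0.0823). When the 2 ranges of animal number entered the fit as a block it was called at 0.35 (limma adjusted p = 0.0186). That block puts control 9 with high-dosed animals 8, 10 and 11 by number alone. The labels do not name animal number as a batch, so this fit is not a correction for one. Irs1 has 1 probe set on the array, so no other probe set bears on the rise.

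Irs2, the other main substrate in liver and in mice a target of FOXO1, did not pass the test. Its intensity ran from 654.2 to 779.9 with a median of 708 in the 8 high-dosed livers, against 890.4, 781.1 and 640.6 in controls 1, 2 and 9. All 8 high-dosed values lay inside the range of the 3 controls, and their SD of 41.2 was below that of the controls, 125.2. Its fold change on the log2 scale was -0.11 ± 0.087 (SE, limma adjusted p = 0.487), with a 95% interval for the fold change from 0.816 to 1.06. It moved with the controls, to -0.003 without control 1, the highest, and to -0.22 without control 9, the lowest (limma adjusted p = 0.114).

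Pik3r1 encodes the regulatory subunit through which phosphoinositide 3-kinase docks on IRS proteins. Intensities were 241.2, 242.7, 290.7, 277.1 and 325.1 in high-dosed animals 2 to 6 and 228.4, 209 and 264.8 in high-dosed animals 8, 10 and 11, against 304.7, 326.5 and 279.8 in controls 1, 2 and 9. In 6 of 8 high-dosed livers Pik3r1 was below all controls, and in animals 4 and 6 it was within their range. A log2 fold change of -0.19 ± 0.10 (SE) did not pass (limma adjusted p = 0.265), with an interval for the fold change from 0.749 to 1.02.

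The AKT kinases, which carry the signal from the membrane to FOXO, GSK3 and the growth pathway, were close to even between the groups on their brightest probe sets. Akt1 averaged 2513 ± 153 in high-dosed and 2544 ± 222 in control livers (SD, n = 8 and 3), with a log2 fold change of -0.016 ± 0.068 (SE, limma adjusted p = 0.907) and an interval from 0.893 to 1.09-fold. Akt2, the form most tied to insulin action on glucose, averaged 1056 ± 61.4 in high-dosed and 980.6 ± 86.4 in control livers, with a log2 fold change of 0.10 ± 0.070 (limma adjusted p = 0.395) and an interval from 0.967 to 1.19-fold. Without control 9 the value of Akt2 was 0.035 and without control 2 it was 0.15. With all arrays these intervals leave out changes as large as 1.2-fold in either direction for both brightest probe sets. The other 2 tested probe sets of Akt2 had log2 fold changes of -0.023 and 0.006.

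The middle of the 3 Akt1 probe sets varied more between animals than the brightest did. Its intensities were 774.4, 628.5, 703.6, 790.3 and 715.7 in high-dosed animals 2 to 6 and 495.9, 549.9 and 485.7 in high-dosed animals 8, 10 and 11, against 526.2, 593.6 and 615.1 in controls. High-dosed animals 2 to 6 lay above all controls, while animal 10 lay among them and animals 8 and 11 below them, so the log2 fold change of 0.12 ± 0.14 averaged over values on both sides (limma adjusted p = 0.652). The dimmest Akt1 probe set, below the filter, had the same order among high-dosed animals, from 96 to 113.3 in animals 2 to 6 and from 63.9 to 82.1 in animals 8, 10 and 11. Its exact two-sided permutation p against controls was 0.642, unadjusted. The brightest Akt1 probe set did not show that order, with 2238 in animal 8 and 2635 in animal 11.

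**Figure D2:**
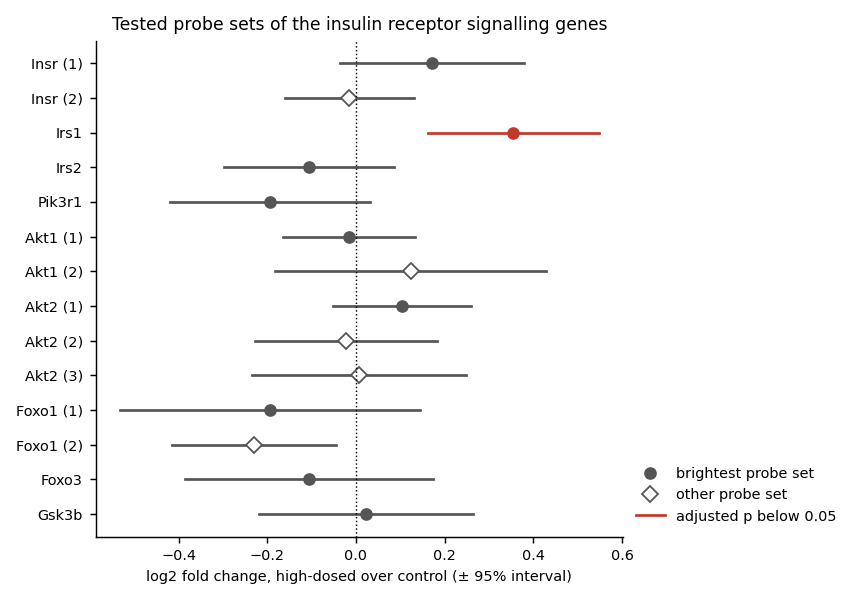
Log2 fold change, high-dosed over control (horizontal axis), with its 95% interval for the 14 tested probe sets of the 9 genes, numbered from the brightest where a gene has several. Filled circles are the brightest probe set of a gene and open diamonds its others; the interval of Irs1 (red) and that of the dimmer Foxo1 probe set do not include 0, and only Irs1 passed after adjustment.

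Foxo1, the forkhead factor that drives glucose production when insulin is low, had lower means in high-dosed livers on all 3 of its probe sets. None of those above the filter was called, and the dimmest was not tested in limma. On the brightest, intensities were 369.3, 386, 465.1, 451.6 and 446.9 in high-dosed animals 2 to 6 and 298, 288.9 and 262.3 in high-dosed animals 8, 10 and 11, against 470.7, 449.3 and 361 in controls 1, 2 and 9. Animals 8, 10 and 11 lay below all controls, and the other 5 lay within their range. The log2 fold change was -0.19 ± 0.16 (SE, limma adjusted p = 0.481), with an interval from 0.691 to 1.11-fold, and -0.007 without animals 8, 10 and 11. The SD of Foxo1 among high-dosed livers, 0.28 on the log2 scale, was at the 91st percentile of all genes tested, whose median was 0.135.

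The dimmer tested Foxo1 probe set gave a narrower picture. It ran from 185.4 to 265.4 with a median of 232.9 in high-dosed livers, against 254.5, 298 and 281.4 in controls 1, 2 and 9. In 7 of 8 high-dosed livers it was below all controls, and animal 3 lay among them. Its log2 fold change of -0.23 ± 0.086 (SE) had an unadjusted p of 0.0184 and a limma adjusted p of 0.13 over all probe sets, and over the other settings it ran from -0.33 to -0.17 without being called. The third Foxo1 probe set, below the filter, ran from 34.99 to 45.29 in high-dosed livers, against 45.32, 55.1 and 46.9 in controls. The groups did not overlap, though only by 45.29 against 45.32. Of genes above the filter 3.37% had the high-dosed group below all controls, a share not on the same base. For this probe set the exact two-sided permutation p was 0.0121, unadjusted, where the smallest possible is 0.00606. All its values lay at or below the added constant of 55.26, and it was 1 of 5 probe sets below the filter that were tested in this way; the other four had p from 0.218 to 0.642.

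Foxo3, a related forkhead factor with targets in autophagy and cell death, turned on 1 control. Its brightest probe set ran from 1244 to 1605 with a median of 1530 in high-dosed livers, against 1325, 1405 and 2244 in controls 1, 2 and 9. Control 9 lay above every other animal. The log2 fold change was -0.11 ± 0.13 (SE, limma adjusted p = 0.652) with all arrays and 0.13 without control 9 (limma adjusted p = 0.415). Within animal numbers 6 and below it was 0.19 (limma adjusted p = 0.145), and within numbers 8 and above, where control 9 was the 1 control, -0.68 (limma adjusted p = 0.085). The 2 dimmer Foxo3 probe sets, below the filter, did not single out control 9, with 93 in control 9 against 92 and 83.1 in controls 1 and 2 on the brighter of them.

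Gsk3b, the kinase that restrains glycogen synthase until AKT inhibits it, averaged 222.4 ± 36.3 in high-dosed and 216.9 ± 24.9 in control livers (SD, n = 8 and 3). High-dosed animal 2 had the highest value, 295.6, and high-dosed animal 6 the lowest, 178, with the controls between them at 200.5, 204.6 and 245.6. The log2 fold change was 0.023 ± 0.11 (SE, limma adjusted p = 0.92), with an interval from 0.86 to 1.2-fold. Its sign turned without high-dosed animal 2 (-0.027), without control 1 (-0.02), without control 2 (-0.009) and within animal numbers 8 and above (-0.164).

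Among the high-dosed animals, those numbered 8, 10 and 11 separated from those numbered 2 to 6 for 3 of the 9 brightest probe sets, with Irs1 higher and with Foxo1 and Foxo3 lower in animals 8, 10 and 11. Over all genes tested 26.5% separated in this way, 4.75% higher and 21.7% lower, so 3 in 9 is near that background. Of all 19 probe sets 8 separated, 1 higher and 7 lower. These 8 included all 3 of Foxo3 and the 2 dimmer ones of Akt1. Among them the dimmest of Akt1, the dimmest of Foxo1 and the dimmer ones of Foxo3 were below the filter. Over all probe sets above the filter 30.1% separated (4.66% higher and 25.5% lower), so the count over all 19 is not on the same base as that share. The labels do not say what sets these animals apart, and no test of this split was made. Animals 8, 10 and 11 also had the lowest array medians of the 11, 149.3, 153 and 149, against 159.3 to 186.6 in high-dosed animals 2 to 6 and 162.1 to 176.4 in controls, and the part of this in the split was not tested. With high-dosed animals 2 to 6 alone against the 3 controls, the log2 fold change was 0.15 for Insr, -0.098 for Irs2, -0.12 for Pik3r1, -0.011 for Akt1, 0.14 for Akt2, -0.042 for Foxo3 and 0.046 for Gsk3b, with limma adjusted p from 0.282 to 0.947.

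**Figure D3:**
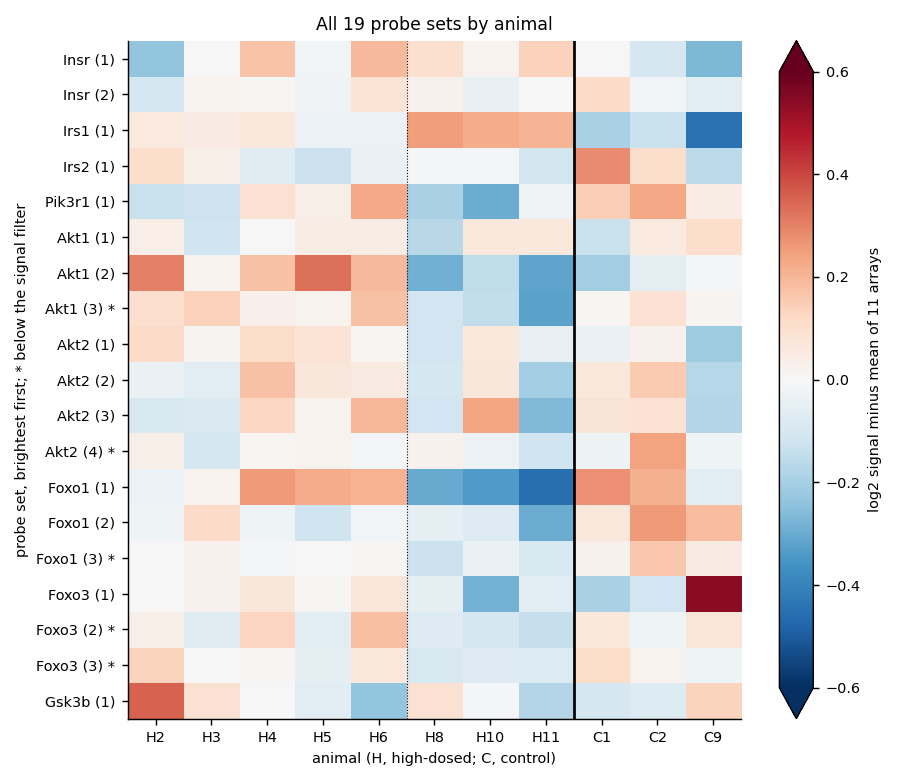
Log2 signal of all 19 probe sets (rows, numbered from the brightest within a gene; a star marks those below the filter) in each animal (columns), as the difference from the mean of the 11 arrays, red above and blue below. High-dosed animals stand left of the solid line, with a dotted line before animals 8, 10 and 11, and controls right of it; the Irs1 row is red in animals 8, 10 and 11, where the first Foxo1 row is blue, and the first Foxo3 row is darkest in control 9.

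**Figure D4:**
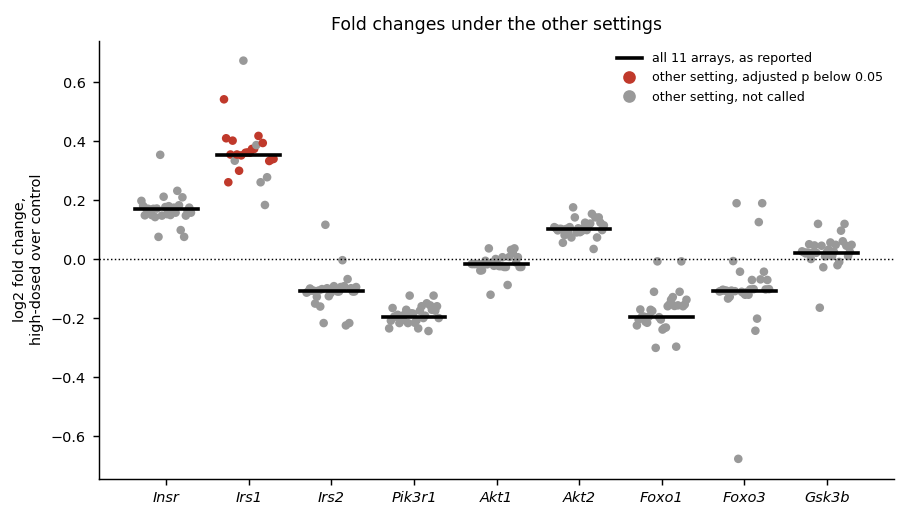
Log2 fold change, high-dosed over control (vertical axis), of the 9 genes as reported (bars) and under each other setting of scaling, filter, added constant, model or arrays left out (points, red where the adjusted p was below 0.05). Irs1 stays above 0 in the 24 of 30 settings where it was tested, red in 18. In the others it fell below the filter, and the 24 include reruns with the tested genes kept. Akt1, Gsk3b, Irs2 and Foxo3 have points on both sides of 0.

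The genes around these 9 in the pathway mostly did not pass the test either. Of 93 genes listed for adaptors, kinases, inhibitors and targets of insulin signalling, 75 were tested, 6 rose, 4 fell and 65 did not pass. The called share was 13.3%, against 10.6% of all genes (7.91% higher and 2.74% lower). Medians of the 5 lists lay between -0.01 and 0.026 on the log2 scale, against 0.017 over all genes tested.

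Among 11 tested adaptors and genes of the RAS branch, 0 rose and 1 fell (9.09%, against 10.6% of all genes). This was Irs3, a substrate that rodents use mainly in fat, with 171.8 to 444.6 in high-dosed livers, against 443.7 to 604.5 in controls. In 7 of 8 high-dosed livers Irs3 was below all controls (log2 fold change -0.76 ± 0.20, SE, limma adjusted p = 0.0308), opposite in direction to Irs1. Its call was lost without any 1 of the 3 controls (limma adjusted p from 0.0754 to 0.116) and without high-dosed animal 5 (limma adjusted p = 0.0507). It was also lost after centring on the median of all probe sets (limma adjusted p = 0.0521). The same held within animal numbers 8 and above, where 1 control remained (-0.865).

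Among 21 tested genes of phosphoinositide 3-kinase, AKT and the kinases below them, 3 rose and 0 fell (14.3%, against 10.6% of all genes). Eif4ebp1, a repressor of translation that mTOR inactivates, averaged 1931 ± 190 in high-dosed and 1492 ± 46.0 in control livers (SD, n = 8 and 3; log2 fold change 0.36, limma adjusted p = 0.0178). Prkcz, an atypical protein kinase C, averaged 330.9 ± 63.6 in high-dosed and 192.4 ± 43.0 in control livers (0.64, limma adjusted p = 0.0197). Pdpk1, which phosphorylates AKT in its activation loop, averaged 1984 ± 99.8 in high-dosed and 1667 ± 145 in control livers (0.25, limma adjusted p = 0.0297). For each of these 3 all 8 high-dosed animals lay above the range of the controls, as for 8.69% of all genes tested. The 3 were named because they were called, so this separation is not further evidence. All 3 calls were lost without control 1 (limma adjusted p from 0.0632 to 0.191) and within animal numbers 8 and above, where 1 control remained. Those of Eif4ebp1 and Pdpk1 were also lost without control 2. That of Prkcz was lost within animal numbers 6 and below (0.70, limma adjusted p = 0.0519). Pdpk1 lost its call in 10 of 30 other settings. Among these were quantile normalization, median centring and leaving out high-dosed animals 8, 10 and 11 (0.21, limma adjusted p = 0.107).

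Of 15 tested inhibitors 1 rose and 0 fell (6.67%, against 10.6% of all genes). The 1 was Grb10, an adaptor that binds the receptor and dampens it (0.38 ± 0.11, SE, limma adjusted p = 0.0411). Like Irs1 it was dim and passed the filter of 7.40 through the high-dosed arrays, with a mean log2 signal of 7.71 in high-dosed and 7.33 in control livers, and with no filter its limma adjusted p was 0.0482. Its call was lost in 13 of 29 other settings, among them leaving out control 1 or 9 and leaving out any 1 of high-dosed animals 3, 5, 6, 8 and 10.

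Among 14 tested targets that FOXO drives and insulin lowers, 2 rose and 1 fell (21.4%, against 10.6% of all genes, with no test of the list). Ppargc1a, a coactivator of glucose production, averaged 332.9 ± 67.9 in high-dosed and 140.7 ± 36.9 in control livers (log2 fold change 0.99, limma adjusted p = 0.00182). Bcl2l11, which promotes cell death, averaged 442.3 ± 101 in high-dosed and 192.4 ± 58.6 in control livers (1.01, limma adjusted p = 0.00477), while its other probe set had the opposite sign. Pdk4, which shuts off pyruvate oxidation, averaged 3870 ± 636 in high-dosed and 6185 ± 301 in control livers (-0.68, limma adjusted p = 0.00544). Named after their values were seen, the classical FOXO1 targets Pck1 (0.015, limma adjusted p = 0.905) and Igfbp1 (-0.69, limma adjusted p = 0.151) did not pass.

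Among 14 tested genes that insulin raises in liver, 0 rose and 2 fell (14.3%, against 10.6% of all genes, with no test of the list). Ppp1r3b, which targets a phosphatase to glycogen, averaged 1437 ± 265 in high-dosed and 4120 ± 832 in control livers (-1.49, limma adjusted p = 0.000354). Insig1, a brake on sterol synthesis, averaged 8078 ± 1074 in high-dosed and 10590 ± 1275 in control livers (-0.39, limma adjusted p = 0.0448), a call that was lost in 14 of 30 other settings, among them leaving out control 1 or 9 and using no filter. The calls of Ppp1r3b, Ppargc1a, Bcl2l11 and Pdk4 were each lost in 1 of 30 settings, within animal numbers 8 and above, where 1 control remained.

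**Figure D5:**
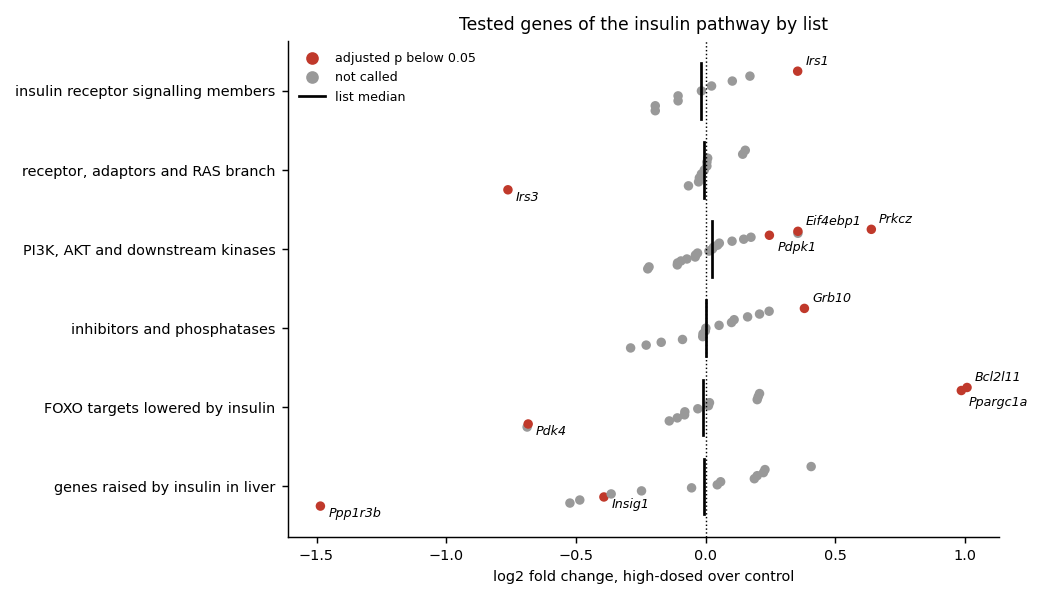
Log2 fold change, high-dosed over control (horizontal axis), of each tested gene in the list of 9 members and the 5 lists around it (rows), with called genes in red and named, others in grey and each list's median as a bar. The medians lie close to 0 in all 6 rows, and the called genes lie on both sides.

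Markers of other cell types were counted beside these genes, against the 10.6% of all genes called (7.91% higher and 2.74% lower), with no test of a list as a whole. Of 11 tested endothelial markers 3 rose (Pecam1, Emcn and Stab2), or 27.3%, and 0 fell. The summed intensity of the list was 15630 to 17360 in high-dosed livers and 13570 to 15570 in controls, without overlap. Of single genes tested 8.69% had the high-dosed group above all controls, and no such share was taken for sums. This sum includes the 3 called markers, so it is not separate evidence. Of 11 tested markers of Kupffer cells and macrophages 1 rose (Mrc1; 9.09%) and 0 fell, with overlapping sums of 33860 to 46020 in high-dosed and 25670 to 34450 in control livers. Of 3 tested cholangiocyte markers 1 rose (Epcam), or 33.3%, and 0 fell. Sums over 6 markers were 1722 to 2526 in high-dosed and 1524 to 1621 in control livers. They include Epcam, so they are not separate evidence either. Of 13 hepatocyte markers 1 rose (Apoa1) and 1 fell (Asgr1), together 15.4%, with sums of 218000 to 229200 in high-dosed and 221000 to 225000 in control livers. Of 11 tested stellate cell markers and 5 tested lymphocyte markers 0 passed the test in limma. The list of fat and muscle markers, tissues where Irs1 is prominent, summed to 5672 in high-dosed animal 11 and to 1024 to 1229 in the other high-dosed livers, against 1090 to 1774 in controls. The lowest value on these arrays is 1, so no marker was listed at 0, and the part of these cells in the rise of Irs1 was not tested.

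Genes whose signal over the 11 arrays was most like that of each receptor-level member were found by the root mean square difference between centred log2 signals in units of each gene's SD, among 10619 genes. For Irs1 these were Prmt9, an arginine methyltransferase (0.242), Abhd10, a mitochondrial hydrolase (0.292), and Eif2b2, a subunit of a translation factor (0.321). For Insr they were Mtrr, which reactivates methionine synthase (0.232), Eif2a (0.316) and Tspan6, a tetraspanin (0.335). For Irs2 the nearest were farther away, Entpd4 (0.463), Gmppb (0.474) and Angel2 (0.477). With 11 arrays and this many genes, close matches are a description only.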

How the data were processed

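Probe set signals of 11 Affymetrix arrays, 1 per animal, were used as the authors deposited them, as intensity on a linear scale from 1 to 34328. MAS5 is named, without a version, per the submitters' processing notes. Scaling between arrays and detection calls are not given in the sources used here. No 2 arrays were identical. The number of arrays, 8 and 3, limits the precision. Values were taken as log2(intensity + 55.26). Left out were 57 control probe sets and those with a mean log2 signal below 7.40, the 40th percentile. A single gene symbol was listed for 20832 probe sets, several for 436 and none for 9831. A gene was represented by its brightest probe set of 1 symbol. Groups were compared in limma 3.58.1 (R 4.3.3), two-sided, with an intensity trend in the variances and Benjamini-Hochberg adjustment over all 10714 genes, or over all 18625 probe sets for a gene's other probe sets. All adjusted p are from these fits. The fit was tested on simulated data. Probe sets of the members below the filter were compared by exact permutation over 165 arrangements. The p-values measure the spread between these animals, 1 array each.

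The members and gene lists were chosen with earlier results of these data known. Genes named were the 9 members, up to 4 called genes of each pathway list by adjusted p, called cell type markers, and the 3 genes most like Insr, Irs1 and Irs2; placeholder symbols were left out of the last. Of 93 listed pathway genes 79 matched a probe set of 1 symbol. Alternatives covered the added constant, the filter, scaling, the variance trend, array weights, single arrays left out and animal number. Median centring over all probe sets, and leaving out animals with the tested genes kept, were chosen after seeing the data.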

Additional observations from a re-analysis of the deposited data

Results flagged for a closer look

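In high-dosed animal 10 the brightest Foxo3 probe set stood apart from the other 7 high-dosed livers. Its value of 1244 was the lowest of the group, and its gap to the next, on the log2 scale, was 0.611 of the group's range, above Dixon's critical value of 0.526 for 8 samples. It was the 1 flag among the 19 probe sets examined in this group, and chance flags about 1 in 20. Without this animal the log2 fold change of Foxo3 was -0.07 (limma adjusted p = 0.791).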

How the results depend on the processing

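The count of called members, 1, was 0 within animal numbers 6 and below, within numbers 8 and above, without high-dosed animals 8, 10 and 11, after median centring and under a filter raised to the 60th percentile, where Irs1 was not tested. Leaving out 1 array at a time it was 0 to 1. It was 0 without control 1 or 9, where Irs1 lost its call, and without high-dosed animal 8, 10 or 11, where Irs1 fell under the filter; with the tested genes kept it was called in those 3 cases (limma adjusted p from 0.0413 to 0.0419). The count of called member probe sets, 1, was also 0 in each setting where the member count was 0 (0 to 1 with 1 array left out), after median centring over all probe sets and, with the tested probe sets kept, without high-dosed animal 8. No member was called as lower in any of 30 settings, and the other 8 members were never called.

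Over all genes, 1141 calls became 608 (405 higher) within numbers 6 and below, 1 (1 higher, 0 lower) within numbers 8 and above, 715 (503 higher) without animals 8, 10 and 11 and 731 (473 higher) after median centring. With the tested genes kept, the member count was 0 within numbers 6 and below and without animals 8, 10 and 11, and all calls were 612 (408 higher) and 716 (506 higher) in these settings. Lower calls were 147 after median centring over all probe sets. With 1 array left out, all calls ran from 323 (without control 1) to 1408, higher ones from 244 to 1083 and lower ones from 79 to 325; without control 2 there were 758 calls, and without control 9 548 higher ones. Called pathway list genes, 10, were 0 within numbers 8 and above and 4 to 10 with 1 array left out, lowest without control 1.

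Signs turned for 4 members, none of them called. Akt1 was 0.037 within numbers 6 and below, 0.007 without high-dosed animal 8 (tested genes kept), 0.022 with centring over all probe sets and -0.087 to 0.032 with 1 array left out. Gsk3b was -0.164 within numbers 8 and above and -0.027 to 0.097 with 1 array left out. Foxo3 was 0.19 within numbers 6 and below, -0.676 within numbers 8 and above and -0.242 to 0.126 with 1 array left out, and Irs2 was 0.117 within numbers 8 and above. The causes were not tested. No paired analysis was possible because each animal was in 1 group only, with 1 array. Without detection calls, signal over background is unknown for the dimmest probe sets.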
